A study of Mus musculus with 16 samples.

Results

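The 196 genes described here flank Ctnnb1, the β-catenin gene, on mouse chromosome 9. They were chosen by position and level, less 13 genes left out by name, with earlier results of these data known. A member is a gene of the deposited table that lies within 15 Mb of Ctnnb1 on the mm10 genome and has a mean of at least 0.5 FPKM over the 16 libraries. FPKM, fragments per kilobase of transcript scaled to the mapped fragments of the library, is a level that takes transcript length and library size into account. The window holds 297 of the 23284 genes of the table. Of these, 13 were left out by name (Ctnnb1, Cck, Cx3cr1, Mobp, Grm2, Celsr3 and the semaphorin, plexin, collagen and Uqcr genes), and 88 were below the level. In all, 13978 genes of the table reached that level and were tested.

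The prefrontal cortex of mice 2 to 3 months old, of both sexes, was sequenced as 16 polyA RNA libraries, 4 from each of 4 genotypes. APC cKO mice were APC fl/fl, with loxP sites around exons 11 and 12 of Apc, and their labels name no Ctnnb1 allele. β-cat cOE mice were ctnnb1 fl(ex3)/+, with 1 Ctnnb1 allele that loses exon 3 and so gives a stabilized protein. APC/β-cat cKO mice were APC fl/fl and ctnnb1 fl/fl, with loxP sites around exons 2 to 6 of both Ctnnb1 alleles. All 3 lines carried CamKIIα-Cre-93, which recombines mainly in forebrain excitatory neurons, so the other cells of the tissue keep the targeted exons. Controls were Cre-negative littermates pooled from all lines, and the sources used here do not give the floxed alleles that each control carried. They also do not say whether a library was 1 animal, so p-values measure the spread between these libraries.

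β-Catenin joins cadherins to the cytoskeleton and, when it is not degraded through APC, enters the nucleus and acts with TCF/LEF factors in canonical Wnt signalling. DNA next to a targeted gene is inherited with it. Mice that are homozygous for an engineered allele are therefore usually homozygous for the DNA around it as well, in every cell and with or without Cre. The genes of the window have many roles. They include the transport adaptor Trak1, the lysosomal enzyme gene Glb1, ribosomal protein genes and a row of zinc finger genes. Loss of β-catenin and the DNA linked to the floxed Ctnnb1 allele change together in the APC/β-cat cKO group and cannot be told apart here. The strain from which that DNA came is not given in the sources used here.

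The targeted genes were read first. Apc was at 43.9 ± 4.21 FPKM in controls and 44.5 ± 5.11 FPKM in β-cat cOEs, against 11.7 ± 3.88 FPKM for APC cKOs and 10.1 ± 2.30 FPKM for the double mutant APC/β-cat cKOs (SD, n = 4 each), in the direction of the genotypes. For Ctnnb1 the APC/β-cat cKO mean of 154.5 ± 2.55 FPKM stood beside means of 159.9 ± 4.54 for controls, 159.7 ± 4.43 for β-cat cOEs and 170.3 ± 10.8 for APC cKOs (SD, n = 4 each). The gene value of Ctnnb1 did not pass the test in any comparison, so it does not by itself mark the groups. No counts are given, so library depth is unknown, and 5726 to 6649 genes were listed at 0 in a library.

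The members were spread unevenly. On the lower-coordinate side of Ctnnb1 lay 157 members, and on the higher side 39, since the last gene of the chromosome in the table, Ppp2r3d, ends 3.52 Mb above Ctnnb1. Distances below are in Mb from Ctnnb1, negative on the lower side. The median of the members' mean levels was 9.04 FPKM (quartiles 2.96 and 23.8), and the levels ran from 0.529 FPKM for Uba7 to 711.9 FPKM for Lars2. Of the members, 16 had a mean under 1 FPKM and 9 a mean of at least 100 FPKM. Just inside the threshold lay Uba7, Camp at 0.533 FPKM and Prss50 at 0.535 FPKM. Just outside lay Lyzl4 at 0.499 FPKM and Tgm4 at 0.475 FPKM. Uba7, Camp and Snora62 reached it only with 1 genotype. Snora62, a small nucleolar RNA listed with the coordinates of Rpsa, was at 18.1 FPKM in control replicate 2 and at 0 in the other 15 libraries.

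Of the 196 members, 7 were called, all of them lower in APC/β-cat cKOs. In limma's moderated test across all 13978 tested genes, a call was a Benjamini-Hochberg adjusted p under 0.05. Against controls 5 members were called (2.55%, where 0.207% of tested genes were called). Against APC cKOs it was 6 members (3.06%, beside 0.215% of tested genes), and against β-cat cOEs it was also 6 (3.06%, beside 0.229%). These 3 comparisons share the APC/β-cat cKO libraries, so their values are given side by side and not as separate evidence. In the moderated F test for any difference among the 4 genotypes 6 members were called (3.06%, beside 0.25% of tested genes). The comparison with APC cKOs is the one in which both groups carry Cre and floxed Apc and the stated difference is the Ctnnb1 allele.

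No member was called in the comparisons that leave the APC/β-cat cKO group out. Here the calls of limma were 0 in APC cKOs against controls (background 0.0429%), 0 in β-cat cOEs against controls (background 0.0143%) and 0 in β-cat cOEs against APC cKOs (background 0.0429%). At an unadjusted p under 0.05 these comparisons held 18, 5 and 11 members. That is 9.18%, 2.55% and 5.61% of the members, beside 10%, 5.07% and 7.57% of all tested genes. With the title number as a block, 0 members were called in β-cat cOEs against APC cKOs, and 1 of all tested genes in place of 6.

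**Figure D1:**
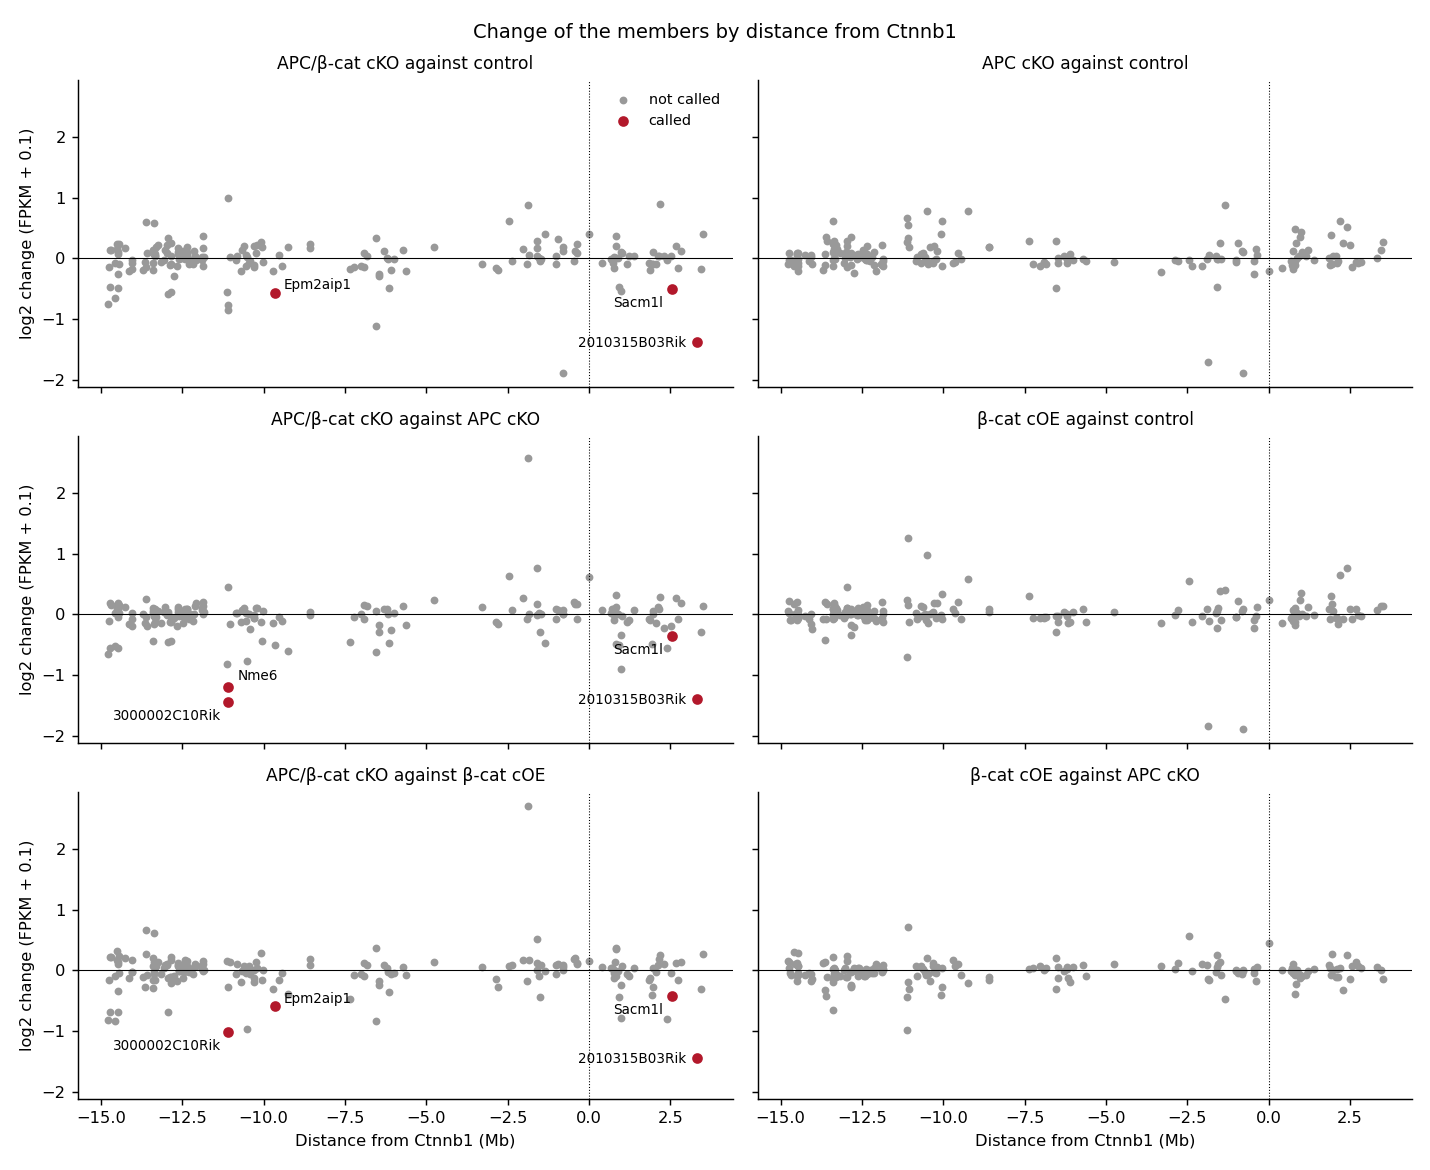
Log2 change of 194 of the 196 members (y axis, on the log2(FPKM + 0.1) scale) against its distance from Ctnnb1 in Mb (x axis, dotted line at Ctnnb1), in 6 panels, 1 for each comparison. Red points are called members. In the left panels, which hold APC/β-cat cKOs, the called members shown are all below 0 and lie more than 2 Mb from Ctnnb1 on both sides, and in the right panels there is none.

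Of the 7 called members 5 are described here, and their places in the chromosome are set out first. 3000002C10Rik (chromosome 9, 109830154 to 109831431) and Nme6 (109832794 to 109842961) lie side by side at -11.10 and -11.09 Mb, on opposite strands, with 1362 bases between them in the table. Epm2aip1 (111271845 to 111279091) lies at -9.65 Mb. Sacm1l (123529882 to 123592598) lies at 2.57 Mb. 2010315B03Rik (124291804 to 124312694) lies at 3.33 Mb. Between Epm2aip1 and Sacm1l lie 12.25 Mb, Ctnnb1 itself and 81 members, of which none was called. Over all tested genes 0.0143% to 0.229% were called in the comparisons, so none of 81 is near those shares. In GENCODE's annotation of the same genome Nme6, Epm2aip1, Sacm1l and 2010315B03Rik are protein-coding and 3000002C10Rik is a transcribed processed pseudogene. Reads of a pseudogene can be shared with its parent gene, so its value is uncertain.

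The upstream DNA of Sacm1l and 2010315B03Rik, from the RefSeq promoter table (GRCm38.p6, the mm10 assembly), is shown because these called members lie on the same side of Ctnnb1 and their stretches differ in base composition. Each is the 250 bases before the RefSeq transcript start, 5′ to 3′ on the strand of the gene, and capitals mark CG dinucleotides, the sites of DNA methylation.
Sacm1l, chr9:123529503-123529752, plus strand: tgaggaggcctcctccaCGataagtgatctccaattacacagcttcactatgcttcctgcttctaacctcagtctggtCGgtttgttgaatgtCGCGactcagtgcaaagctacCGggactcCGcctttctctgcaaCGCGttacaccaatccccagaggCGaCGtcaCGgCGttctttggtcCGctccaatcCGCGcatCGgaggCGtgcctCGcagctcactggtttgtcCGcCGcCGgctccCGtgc
2010315B03Rik, chr9:124312695-124312944, minus strand: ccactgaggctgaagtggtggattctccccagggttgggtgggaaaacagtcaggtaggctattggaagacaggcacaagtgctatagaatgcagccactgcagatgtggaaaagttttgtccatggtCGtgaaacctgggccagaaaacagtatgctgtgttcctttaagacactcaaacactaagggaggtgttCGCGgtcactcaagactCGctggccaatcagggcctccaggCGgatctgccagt

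The Sacm1l stretch holds 22 CG dinucleotides and the 2010315B03Rik stretch 5. The median was 15 over the 221 promoters of members and 6 over the 32851 promoters of the table. The letters CTTTGAT, a core motif of TCF/LEF factors, were searched on both strands from 250 bases before to 50 after each start. They were found for 9 of the 169 members in the table (5.33%) and for 1160 of all 27025 genes (4.29%). The members had passed a filter on level and the genes of the promoter table had not. So neither the medians nor these shares compare the window with other expressed genes. Neither of the members shown holds the motif. The 9 members are Abhd14b, Vprbp, Usp19, Dalrd3, Arpp21, 4930520O04Rik, Rbms3, Ulk4 and Zfp445, and none of them was called.

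2010315B03Rik, a protein-coding RIKEN gene, had the smallest p-values of the members. Its 4 APC/β-cat cKO libraries were at 2.74, 2.26, 2.85 and 2.35 FPKM. The other 12 ran from 6.03 to 7.87 FPKM, so every APC/β-cat cKO library was below every other library. The log2 change was -1.37 against controls, -1.38 against APC cKOs and -1.44 against β-cat cOEs (standard error 0.10 each, limma adjusted p = 3.34e-06, 4.40e-06 and 2.51e-06). Other members of this stretch did not pass the test. 4930526I15Rik, at 3.46 Mb, had a log2 change of -0.30 against APC cKOs (limma adjusted p = 0.477). Fyco1, at 2.83 Mb, had one of 0.18 (adjusted p = 0.547). Ppp2r3d, a regulatory subunit of protein phosphatase 2A and the last gene of the chromosome in the table, was at 4.16 ± 0.410 FPKM in APC/β-cat cKOs and 3.12 ± 0.448 FPKM in controls (SD, n = 4 each), a log2 difference of 0.41 that was not called (adjusted p = 0.250).

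Sacm1l, a phosphatase of phosphatidylinositol phosphates in the endoplasmic reticulum and Golgi, fell by less but with a narrow spread. Its 4 APC/β-cat cKO libraries were at 29.4, 27.2, 28.3 and 28.02 FPKM, and the other 12 ran from 34.7 to 43.0 FPKM. The mean of the APC/β-cat cKOs was 74.2% of the mean of the others. The log2 change was -0.50 against controls, -0.36 against APC cKOs and -0.42 against β-cat cOEs (standard error 0.06 each, limma adjusted p = 2.92e-04, 0.0134 and 0.00260). The call against APC cKOs was lost without APC/β-cat cKO replicate 2 (adjusted p = 0.0545), with the title number as a block (0.0985) and with only the 2 groups fitted (0.0796). The members on both sides were not called. Limd1 had a log2 change of -0.18 against APC cKOs (adjusted p = 0.541), and its APC/β-cat cKO libraries, at 2.103 to 2.36 FPKM, all lay below its APC cKO libraries, at 2.48 to 2.73 FPKM, while Slc6a20a, an amino acid transporter gene, had a change of 0.27 (adjusted p = 0.574).

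Epm2aip1, whose product binds laforin, the phosphatase of glycogen metabolism, was at 28.2, 21.1, 27.55 and 19.4 FPKM in APC/β-cat cKOs and at 32.8 to 40.3 FPKM in the others. The groups did not overlap, but within the APC/β-cat cKO group the levels lay in pairs. Its log2 change was -0.57 against controls and -0.59 against β-cat cOEs (standard error 0.10 each, limma adjusted p = 0.0308 and 0.0229). Against APC cKOs it was -0.51 and was not called (adjusted p = 0.0590). The call against controls held in 17 of 26 alternatives, with an adjusted p of 0.0107 to 0.229. It was lost without control replicate 2, 3 or 4 (adjusted p = 0.0938, 0.0750 and 0.114) and without APC/β-cat cKO replicate 2 or 4 (adjusted p = 0.110 and 0.0793). The call against β-cat cOEs was lost without β-cat cOE replicate 1, 2 or 3 (adjusted p = 0.0731, 0.0822 and 0.0603) and without APC/β-cat cKO replicate 2 or 4 (adjusted p = 0.0898 and 0.0561). Lrrfip2, at -9.71 Mb, was at 8.79 ± 0.826 FPKM in APC/β-cat cKOs and 10.9 ± 0.585 FPKM in β-cat cOEs (SD, n = 4 each, limma adjusted p = 0.107), and Trank1, the member after Epm2aip1, had a log2 change of -0.04 against APC cKOs (adjusted p = 0.914).

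Nme6 and 3000002C10Rik form the farthest called pair. Nme6, of the nucleoside diphosphate kinase family, was at 1.79, 1.97, 1.12 and 1.24 FPKM in APC/β-cat cKOs and at 2.17 to 4.66 FPKM in the other 12 libraries. It was called only against APC cKOs (log2 change -1.20, standard error 0.23, limma adjusted p = 0.0469). That call held in 4 of 26 alternatives, whose adjusted p ran from 0.0295 to 0.204. It was lost without any 1 of 13 libraries, and kept only without control replicate 4 or β-cat cOE replicate 3 or 4 among the 16. 3000002C10Rik was at 0.601, 1.31, 1.05 and 0.723 FPKM in APC/β-cat cKOs and at 1.48 to 2.95 FPKM in the others. Its log2 change was -1.44 against APC cKOs and -1.01 against β-cat cOEs (standard error 0.19 each, limma adjusted p = 0.00332 and 0.0418), and the second call held in 9 of 25 alternatives. The call against APC cKOs was lost with the title number as a block (adjusted p = 0.0614) and with only the 2 groups fitted (adjusted p = 0.0869). The call against β-cat cOEs was lost without any 1 of 12 libraries, with an adjusted p of 0.0507 to 0.143, and kept without control replicate 1 or 4, β-cat cOE replicate 3 or APC/β-cat cKO replicate 2. Against controls it was -0.77 (adjusted p = 0.150). This gene also had all 4 APC cKO libraries, at 2.32 to 2.95 FPKM, above the other 12, with a log2 difference of 0.67 from controls that was not called (adjusted p = 0.310). In the exact two-sided permutation test of 4 against 4 libraries, each of the 7 members gave p = 0.0286 in each of its comparisons of APC/β-cat cKOs with another group, which is the smallest p this test allows. The test was run on members already called, whose groups do not overlap here, so this p was fixed and adds no support. Vill, a member that was not called, gave the same p in these comparisons.

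**Figure D2:**
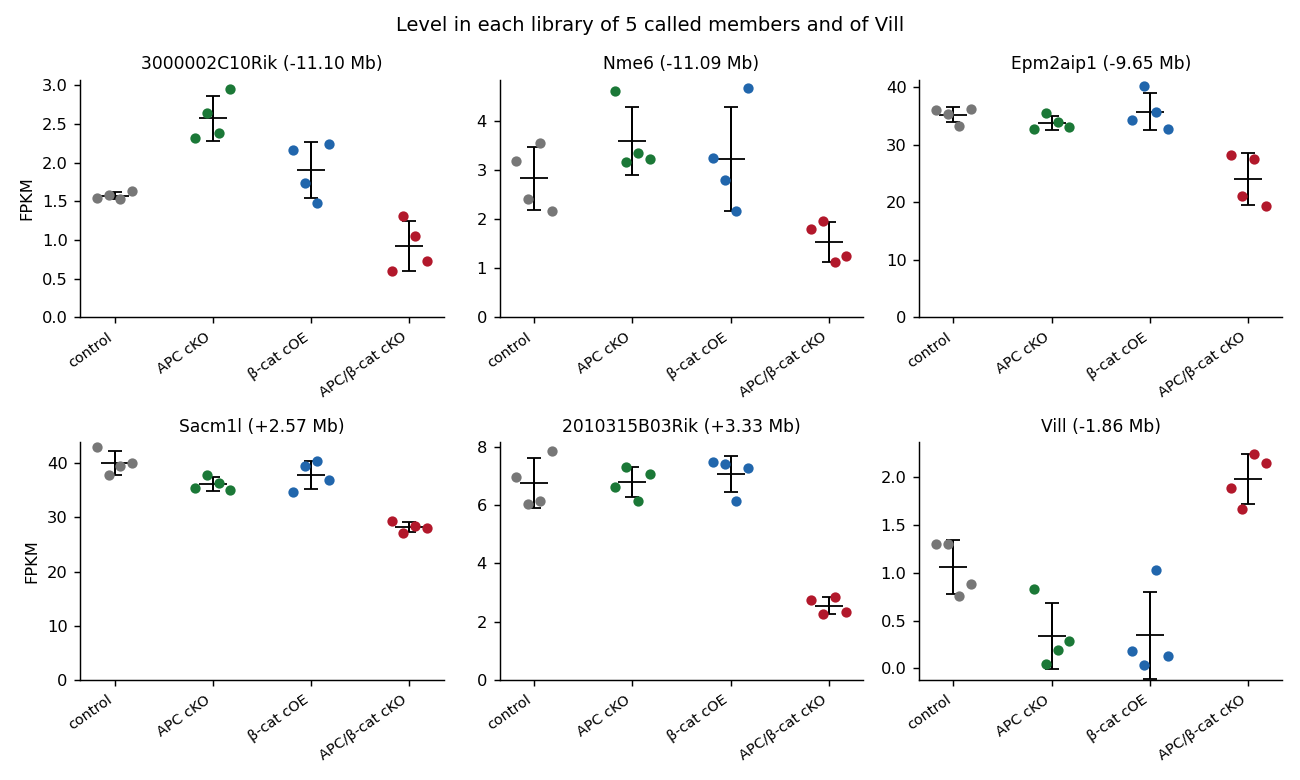
FPKM (y axis, from 0, with room below it where an SD bar reaches under 0) in each of the 4 libraries of each genotype (points, x axis) for 5 of the 7 called members and for Vill, with the mean and SD (n = 4) as bars. For these 5 the 4 APC/β-cat cKO points lie below all 12 others, and for Vill they lie above them.

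The same 7 members, and no others, had all 4 APC/β-cat cKO libraries below the other 12. They make up 3.57% of the members, where 0.179% of all tested genes had this order. This count was added after the data were seen. The same order in the other direction, all 4 APC/β-cat cKO libraries above the other 12, was found for 1 member, Vill (0.51%, beside 0.372% of tested genes). In each other genotype at most 1 member had all 4 libraries below or above the other 12. All 4 control libraries were lowest for 0 members (background 0.0858%) and highest for 0 (background 0.114%). All 4 APC cKO libraries were lowest for 0 members (background 0.157%) and highest for 1, 3000002C10Rik (0.51%, background 0.0858%). All 4 β-cat cOE libraries were lowest for 0 (background 0.0572%) and highest for 0 (background 0.0858%).

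**Figure D3:**
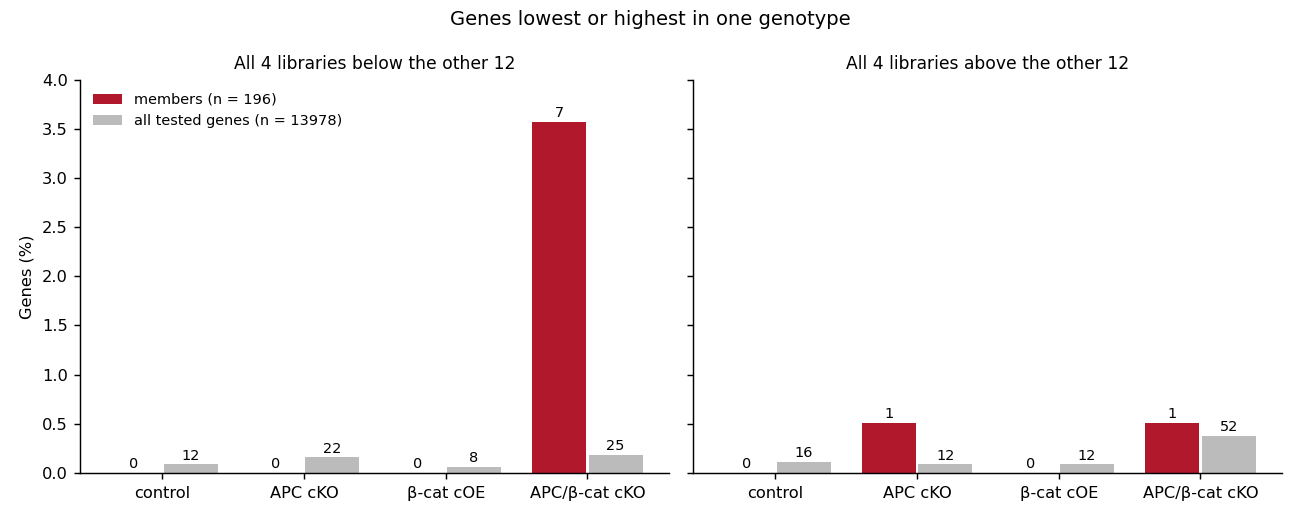
Share of genes (y axis, %) in which all 4 libraries of a genotype (x axis) lie below (left panel) or above (right panel) the other 12, for the 196 members (red) and the 13978 tested genes (grey), with the number of genes over each bar. The bar of members lowest in APC/β-cat cKOs stands at 3.57% beside 0.179%.

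Vill, a villin-like actin-binding protein gene at -1.86 Mb, is the member with the opposite order. It was at 1.89, 1.66, 2.24 and 2.15 FPKM in APC/β-cat cKOs and at 0.755 to 1.30 FPKM in controls. In APC cKOs it ran from 0.0455 to 0.835 FPKM and in β-cat cOEs from 0.0390 to 1.02 FPKM. The log2 difference of APC/β-cat cKOs was 2.70 from β-cat cOEs and 2.56 from APC cKOs (standard error 0.56 each, limma adjusted p = 0.0680 and 0.0919), so it was not called. With a pseudocount of 1 in place of 0.1 it was called in both, and without APC cKO replicate 1 or β-cat cOE replicate 3 it was also called in both. Without APC cKO replicate 2 it was called against β-cat cOEs. Acaa1a, a peroxisomal thiolase of fatty acid oxidation at -1.58 Mb, was at 21.1 ± 1.53 FPKM in APC/β-cat cKOs and 12.6 ± 2.93 FPKM in APC cKOs (SD, n = 4 each, log2 difference 0.76, limma adjusted p = 0.0858). It was called without APC cKO replicate 1 (adjusted p = 0.0308) and without β-cat cOE replicate 1 (adjusted p = 0.0465).

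Counts without adjustment were read in each direction. At an unadjusted p under 0.05 the share of members lower in the double mutants was above that of the whole table in all 3 comparisons, and the share of members higher was below it in 2 of the 3. Against controls 22 members were lower (11.2%, beside 7.03% of tested genes) and 12 were higher (6.12%, beside 7.17%). Against APC cKOs 26 were lower (13.3%, beside 4.15%) and 9 were higher (4.59%, beside 6.13%). Against β-cat cOEs 27 were lower (13.8%, beside 5.04%) and 18 were higher (9.18%, beside 6.88%). The median member lay near 0. The median log2 change of the members was 0.018 against controls, 0.0007 against APC cKOs and 0.014 against β-cat cOEs, and over all tested genes it was 0.0031, 0.0008 and 0.0012. The median size of the change, without its sign, was 0.120, 0.103 and 0.114 in the members and 0.105, 0.092 and 0.098 over all tested genes.

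Genes elsewhere gave a comparison for the position of the window. Among the 599 tested genes of chromosome 9 outside the window, 0, 1 and 0 were called in APC/β-cat cKOs against controls, APC cKOs and β-cat cOEs. Among the 196 tested genes within 15 Mb of Apc, on another chromosome, the counts were 1, 0 and 1. Over all tested genes 0.207%, 0.215% and 0.229% were called in these comparisons. The shares were 0%, 0.167% and 0% on chromosome 9 outside the window, and 0.51%, 0% and 0.51% around Apc. Counts of 0 or 1 cannot set these genes apart from all tested genes. Both Apc lines are homozygous for the floxed Apc allele. The window around Apc held 0 calls in APC cKOs against controls and 1 call in β-cat cOEs against APC cKOs. Over all tested genes 0.0429% were called in each of these, so a count of 0 or 1 is not a result about linked DNA.

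By distance, the called members all lay more than 2 Mb from Ctnnb1. Within 2 Mb on either side lay 44 members, and 0 of them were called in any of the 6 comparisons. Over all tested genes 0.0143% to 0.229% were called in these comparisons. So 0 of 44 is near those shares and cannot show a trend with distance. At an unadjusted p under 0.05, 2 of these 44 were lower and 2 higher against controls, 4 lower and 4 higher against APC cKOs, and 4 lower and 3 higher against β-cat cOEs. The shares over all tested genes are those given above for each direction. From 2 to 5 Mb lay 22 members, with Sacm1l and 2010315B03Rik among the called. At that threshold 5 were lower and 2 higher against controls, 4 lower and 1 higher against APC cKOs, and 6 lower and 2 higher against β-cat cOEs. From 5 to 10 Mb, on the lower side only, lay 26 members, with Epm2aip1 among the called. Their median log2 change was -0.12 against controls, -0.06 against APC cKOs and -0.07 against β-cat cOEs. Of them 6 were lower and 0 higher against controls, 5 lower and 1 higher against APC cKOs, and 6 lower and 0 higher against β-cat cOEs. From 10 to 15 Mb lay 104 members, with Nme6 and 3000002C10Rik called. Against APC cKOs 13 of them were lower and 3 higher, but against controls 9 were lower and 8 higher, and against β-cat cOEs 11 were lower and 13 higher.

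None of the 10 members nearest to Ctnnb1 was called, where 0.0143% to 0.229% of tested genes were called in the 6 comparisons. On the lower side are Rpl14 and Rpsa, of the large and small ribosomal subunits, the ectonucleotidase Entpd3, the initiation factor Eif1b and Myrip, which links myosin and Rab proteins. Rpl14, at -0.36 Mb, had its APC/β-cat cKO mean at 313 ± 42.3 FPKM, with controls at 264.6 ± 15.3, APC cKOs at 276.5 ± 13.4 and β-cat cOEs at 287 ± 28.7 FPKM (SD, n = 4 each). Its groups overlapped, and no comparison was called. Eif1b, at -0.44 Mb, was at 134 ± 14.3 FPKM in APC/β-cat cKOs and 115 ± 2.48 FPKM in β-cat cOEs (SD, n = 4 each, log2 difference 0.21, limma adjusted p = 0.193). Over the 5 members of the lower side, the log2 differences of APC/β-cat cKOs ran from -0.07 (Entpd3 against APC cKOs) to 0.23 (Rpl14 against controls).

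On the higher side the nearest member is Ulk4, a pseudokinase gene whose listed start lies 0.004 Mb past Ctnnb1. In GENCODE's longer model its end overlaps Ctnnb1 by 5157 bases on the other strand, and whether the authors counted by strand is not given in the sources used here. Ulk4 had its APC/β-cat cKO mean at 1.13 ± 0.157 FPKM, with controls at 0.851 ± 0.231, APC cKOs at 0.705 ± 0.119 and β-cat cOEs at 1.004 ± 0.184 FPKM (SD, n = 4 each). Its log2 difference between APC/β-cat cKOs and APC cKOs was 0.61 and was not called (limma adjusted p = 0.295), although the libraries of these groups, at 0.975 to 1.31 and 0.562 to 0.852 FPKM, did not overlap. Trak1, which ties mitochondria to motor proteins on microtubules, was at 36.02 ± 2.44 FPKM in APC/β-cat cKOs and 38.04 ± 2.17 FPKM in controls (SD, n = 4 each). The receptor gene Vipr1, the vesicle transport gene Sec22c and Deb1 had log2 differences of -0.08 to 0.09 in APC/β-cat cKOs against the 3 other groups, and none was called.

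**Figure D4:**
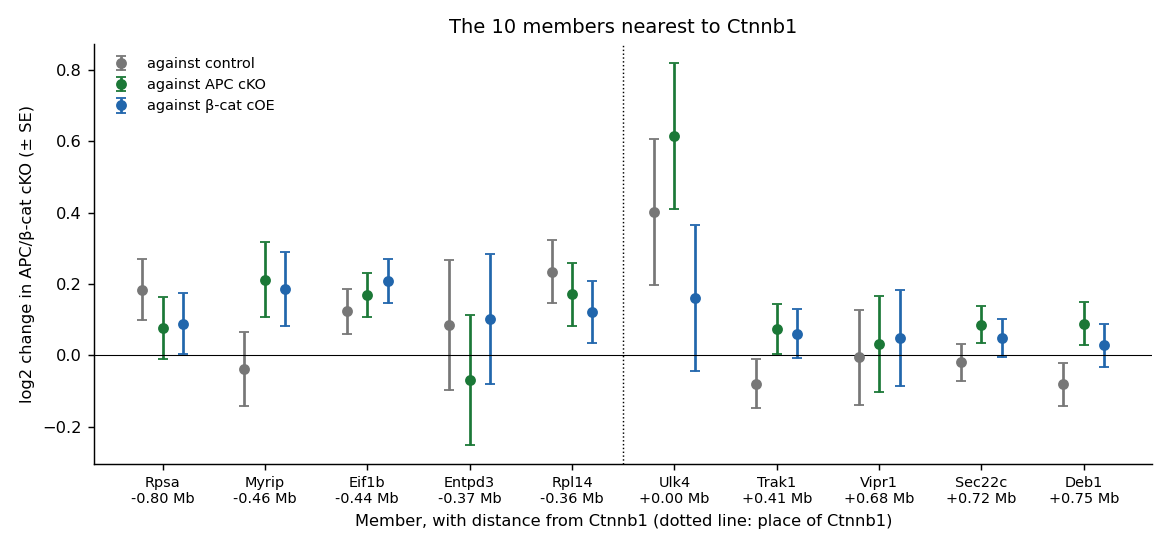
Log2 change in APC/β-cat cKOs against each other genotype (y axis, with its standard error as bars) for the 10 members nearest to Ctnnb1, in order along the chromosome (x axis, with distance in Mb). Ulk4 against APC cKOs stands highest, at 0.61, and no point belongs to a called comparison.

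The members were then read by function, in 6 lists that cover part of them. Each list is given by its count of calls and its median log2 change in APC/β-cat cKOs against APC cKOs. Over all tested genes 0.215% were called in that comparison and the median was 0.0008. At that share a count of 0 in a list of this size is not a result about its function. The lists hold genes picked for their roles, and only some of the listed genes are members. For axonal and cytoskeletal transport 13 of 14 listed genes were members, 0 were called, and the median was 0.022. Its members with the smallest p in the F test were Lrrfip2, the actin regulator Twf2 and Myrip. Twf2 was at 29.5 ± 1.98 FPKM in APC/β-cat cKOs and 25.2 ± 0.850 FPKM in β-cat cOEs (SD, n = 4 each, limma adjusted p = 0.222).

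For channels, synapse and neuronal signalling 18 of 21 listed genes were members, 0 were called, and the median was -0.039. Ip6k1, an inositol hexakisphosphate kinase, was at 59.8 ± 3.49 FPKM in APC/β-cat cKOs and 65.2 ± 1.70 FPKM in APC cKOs (SD, n = 4 each, limma adjusted p = 0.344). Cacna2d2, an auxiliary subunit of calcium channels, was at 7.10 ± 0.650 FPKM and 9.71 ± 2.04 FPKM in the same groups (SD, n = 4 each, adjusted p = 0.335). Gnai2, an inhibitory G protein subunit, was at 83.3 ± 4.67 FPKM in APC cKOs and 71.5 ± 5.41 FPKM in controls (SD, n = 4 each, adjusted p = 0.350). Camkv, a kinase-like protein of neuronal vesicles and one of the most abundant members, was at 204 ± 11.5 FPKM in APC/β-cat cKOs and 191.7 ± 7.16 FPKM in controls (SD, n = 4 each, adjusted p = 0.473).

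For receptor and kinase signalling 12 of 14 listed genes were members, 0 were called, and the median was 0.038. Tgfbr2, a receptor of TGF-β, was at 3.77 ± 0.273 FPKM in APC/β-cat cKOs and 3.17 ± 0.203 FPKM in APC cKOs (SD, n = 4 each, limma adjusted p = 0.477). Ctdspl, a phosphatase gene, was at 5.96 ± 0.111 FPKM in APC/β-cat cKOs and 6.78 ± 0.719 FPKM in β-cat cOEs (SD, n = 4 each, adjusted p = 0.399).

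For mitochondria and metabolism 19 of 21 listed genes were members and the median was 0.014. Sacm1l was the 1 called, and it acts on membrane lipids and not in mitochondria. The lysosomal β-galactosidase Glb1 was at 9.72 ± 0.953 FPKM in APC/β-cat cKOs, 11.8 ± 0.299 FPKM in controls and 11.9 ± 0.933 FPKM in APC cKOs (SD, n = 4 each, limma adjusted p = 0.165 and 0.146). Alas1, the rate-limiting enzyme of haem synthesis, was at 28.5 ± 1.002 FPKM in APC/β-cat cKOs and 24.5 ± 1.17 FPKM in β-cat cOEs (SD, n = 4 each, adjusted p = 0.117). Lars2, a mitochondrial leucyl-tRNA synthetase and the member with the highest level, stood at 373 to 477 FPKM in controls and 399 to 524 FPKM in APC/β-cat cKOs. It reached 1654 FPKM in APC cKO replicate 1 and 3458 FPKM in β-cat cOE replicate 4, while the other 6 libraries of those groups were at 429 to 498 FPKM.

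For ribosome and translation all 8 listed genes were members, 0 were called, and the median was 0.082. Rpl29, of the large ribosomal subunit, was at 247 ± 32.4 FPKM in APC/β-cat cKOs and 221 ± 7.19 FPKM in controls (SD, n = 4 each, limma adjusted p = 0.352). Stt3b, a catalytic subunit of oligosaccharyltransferase, went the other way. It was at 27.7 ± 0.624 FPKM in APC/β-cat cKOs and 32.04 ± 2.90 FPKM in controls (SD, n = 4 each, adjusted p = 0.191). Qars, the glutaminyl-tRNA synthetase gene, was at 28.03 ± 1.44 FPKM in APC/β-cat cKOs and 24.7 ± 0.928 FPKM in β-cat cOEs (SD, n = 4 each, adjusted p = 0.169).

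For zinc finger genes 4 of 10 listed genes were members, 0 were called, and the median was -0.043. Zfp167, at 0.944 ± 0.186 FPKM in APC/β-cat cKOs and 1.35 ± 0.135 FPKM in APC cKOs (SD, n = 4 each), did not pass the test (limma adjusted p = 0.397). Outside these lists, the exonuclease Trex1 was at 8.64 ± 1.31 FPKM in APC/β-cat cKOs and 6.64 ± 0.622 FPKM in controls (SD, n = 4 each, adjusted p = 0.209), and Smarcc1, of a chromatin remodelling complex, was at 12.6 ± 1.55 FPKM and 14.5 ± 0.940 FPKM (SD, n = 4 each, adjusted p = 0.306).

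**Figure D5:**
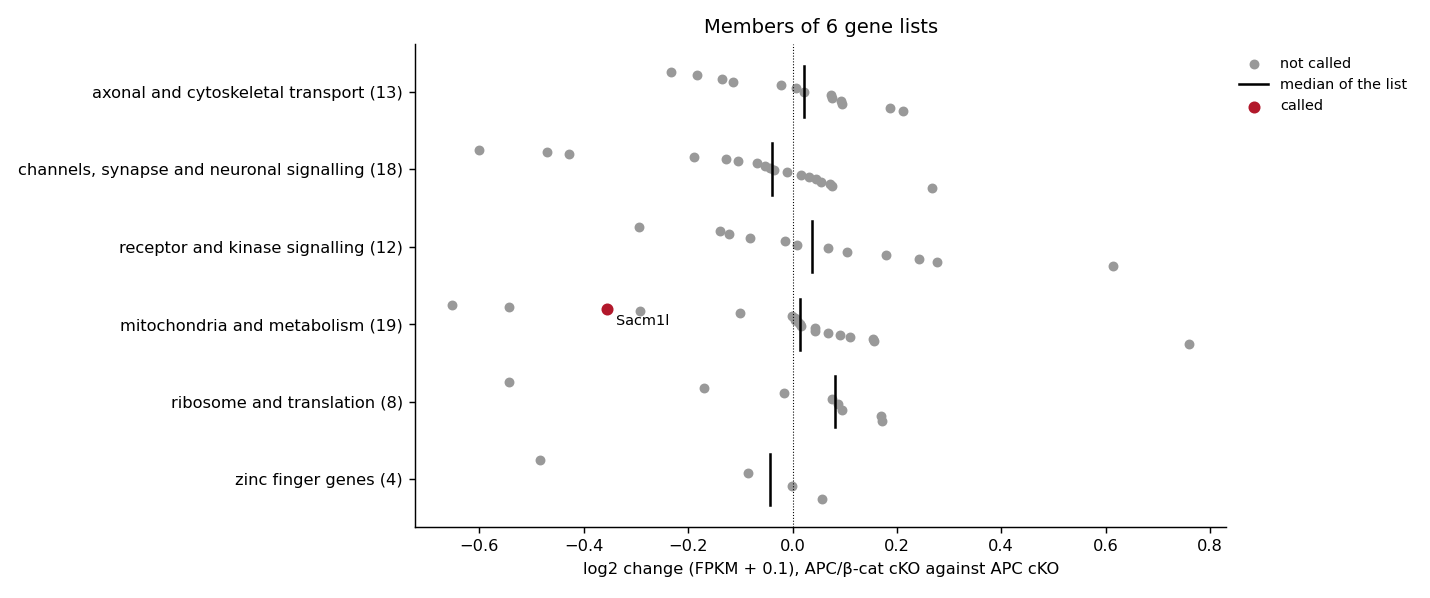
Log2 change in APC/β-cat cKOs against APC cKOs (x axis) of each member of 6 gene lists (rows, with the number of members in brackets), with called members in red and the median of each list as a black line. Sacm1l at -0.36 is the called member, and the list medians lie between -0.043 and 0.082.

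In the comparisons without APC/β-cat cKOs the largest differences stayed short of the test. Besides 3000002C10Rik, Tmie, a gene of inner ear mechanotransduction, was at 2.44 ± 0.361 FPKM in APC cKOs and 1.55 ± 0.115 FPKM in controls (SD, n = 4 each, limma adjusted p = 0.293). Zmynd10, a gene of motile cilia, was at 2.56 ± 0.207 FPKM in APC cKOs and 1.70 ± 0.530 FPKM in controls (SD, n = 4 each, adjusted p = 0.383). The APC/β-cat cKO mean of Zmynd10 was 2.57 ± 0.691 FPKM and the β-cat cOE mean 1.61 ± 0.275 FPKM (SD, n = 4 each). Of the 5 listed markers of choroid plexus and ependyma, tissues with motile cilia, 4 passed the level and none was called. In APC cKOs against controls the log2 changes of these 4 ran from -0.32 to 2.36, with a median of 0.84. At an unadjusted p under 0.05, 1 was higher there, where 10% of tested genes passed in either direction. In APC/β-cat cKOs against APC cKOs 1 was lower, beside 4.15% of tested genes. All 5 summed to 1.98 to 13.8 FPKM in APC/β-cat cKOs, beside 2.49 to 4.88 for controls, 1.95 to 11.1 for β-cat cOEs and 1.82 to 15.6 for APC cKOs. Their part in the level of Zmynd10 was not tested. Hhatl, related to hedgehog acyltransferase, was at 8.09 ± 0.884 FPKM in APC cKOs and 5.90 ± 1.87 FPKM in controls (SD, n = 4 each, adjusted p = 0.361), and it was called when control replicate 1 was left out. In APC/β-cat cKOs against β-cat cOEs, Hemk1, a methyltransferase gene, differed by a log2 change of 0.67 (standard error 0.25, adjusted p = 0.327).

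The markers of other cell types were read beside the calls. In these bulk libraries fewer cells of a type and less RNA per cell cannot be told apart. At an unadjusted p under 0.05, 7.17% of tested genes were higher and 7.03% lower in APC/β-cat cKOs than in controls. Against APC cKOs 6.13% were higher and 4.15% lower, and against β-cat cOEs 6.88% were higher. In APC cKOs against controls 10% passed in either direction. The 5 microglia markers Csf1r, C1qa, C1qb, P2ry12 and Tmem119 were all measured, and none was at 0 or called. At an unadjusted p under 0.05, 2 of the 5 were higher in APC/β-cat cKOs than in controls, and 2 than in APC cKOs. Their summed level was 116 to 134 FPKM in APC/β-cat cKOs, beside 108 to 120 FPKM in controls, 102 to 115.5 FPKM in APC cKOs and 115.5 to 135 FPKM in β-cat cOEs. Of the 5 oligodendrocyte markers, 5 had, at an unadjusted p under 0.05, a higher level in APC/β-cat cKOs than in APC cKOs, with a median log2 difference of 0.53, and none was called. At that threshold 3 of these markers were higher than in controls and 2 than in β-cat cOEs, and 3 were lower in APC cKOs than in controls. Their sum was 878 to 994 FPKM in APC/β-cat cKOs, 603 to 721 FPKM in APC cKOs, 686 to 1057 FPKM in controls and 691 to 896 FPKM in β-cat cOEs. The part of these markers in the calls was not tested. The 5 excitatory neuron markers summed to 1186 to 1342 FPKM in APC/β-cat cKOs and 1067 to 1376 FPKM over the others, and 0 were called. Of the 5 endothelial markers 2 were higher against APC cKOs without adjustment, and their sums of 66.0 to 83.8 FPKM in APC/β-cat cKOs and 49.9 to 65.1 FPKM in APC cKOs did not overlap. The sums were 67.4 to 78.5 FPKM in controls and 70.4 to 75.9 FPKM in β-cat cOEs. Without adjustment 3 of these markers were lower in APC cKOs than in controls, and 0 were lower or higher in APC/β-cat cKOs than in controls. In APC/β-cat cKOs against APC cKOs, 2 of the 6 interneuron markers were higher and 1 was lower, and of the 5 astrocyte markers 1 was lower. Of the 5 listed markers of striatal projection neurons 4 passed the level, and none was higher or lower at that threshold. None of these markers was called.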

How the data were processed

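Libraries were grouped by the genotype in their labels. The authors prepared stranded mRNA libraries, sequenced them as paired 100-base reads, mapped them to mm10 with TopHat2 2.0.10 and made the values with Cufflinks2 (Cuffdiff 2.1.1, per the labels). Deposited values were log2 transformed by the authors and were read as log2(FPKM + 1). The base and offset were inferred from the values. FPKM had been assumed, so the values were turned back into FPKM and the planned test was kept. Values on another scale would change the levels printed. limma 3.58.1 (R 4.3.3; lmFit, contrasts.fit, eBayes with a trend) was fitted to log2(FPKM + 0.1) of the 13978 genes whose mean reached 0.5 FPKM, over all 16 libraries, with 12 residual degrees of freedom and Benjamini-Hochberg adjustment. This scale understates the change of low genes. In simulated data for APC/β-cat cKO against control over 13978 genes, limma called 99 of 100 genes with a log2 change of 2, 95 of 100 with one of 1, and 9 of 13778 unchanged genes. The table has no counts, so no interval from depth is given. The members and lists were chosen with earlier results of these data known. Named members are those called, the 5 nearest on each side, the 3 largest rises and falls in each comparison (unadjusted p under 0.05, mean of at least 1 FPKM, groups apart), the 5 highest, and those of each list with the smallest F-test p. Vill and neighbours of called members were named after their values were seen. The alternatives were other pseudocounts, filters, scalings and thresholds, no trend, sex as a covariate, the title number as a block (every same-numbered pair of APC cKO and β-cat cOE libraries correlated above 0.1, at 0.322, 0.197 and 0.111, so the blocked count is given for that comparison), only the groups compared, and each library left out. Python 3.11.15 was used with numpy 2.4.6 and pandas 2.3.3, and plots with matplotlib 3.10.9. Results for 2 called members and the list that holds one of them are not reported here, though counts over the members include them.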

Additional observations from a re-analysis of the deposited data

Results flagged for a closer look

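In 13 of the 168 groups of 4 libraries of the named members, 1 library stood apart from the other 3 by more than Dixon's 95% critical value for the ratio of the gap to the range. Chance flags about 1 in 20 such groups, or 8.4 here. Of the called members, 2010315B03Rik had β-cat cOE replicate 3 at 6.13 FPKM beside 7.26 to 7.46 FPKM (ratio 0.843), and Nme6 had APC cKO replicate 1 at 4.61 FPKM beside 3.16 to 3.35 FPKM (ratio 0.865). In neither gene was an APC/β-cat cKO library the one apart.

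Lars2 was flagged in controls (replicate 4, ratio 0.903), APC cKOs (replicate 1, ratio 0.955) and β-cat cOEs (replicate 4, ratio 0.977), with levels of 373, 1654 and 3458 FPKM. In APC cKOs the ratio was 0.856 for Cacna2d2 (12.7 FPKM in replicate 3), 0.838 for Ctdspl (5.61 FPKM in replicate 2) and 0.835 for Glb1 (10.5 FPKM in replicate 3). In controls it was 0.864 for Rpl29 and 0.847 for Trak1, both with replicate 4 lowest, at 210 and 34.8 FPKM. In β-cat cOEs it was 0.867 for Vipr1 (5.27 FPKM in replicate 1) and 0.975 for Zfp167 (1.92 FPKM in replicate 4). In APC/β-cat cKOs it was 0.847 for Trex1 (10.6 FPKM in replicate 2).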

How the results depend on the processing

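For 32 results on single named members, 763 alternative values kept their direction and their side of the threshold, 62 lost the call, 2 gained it, and none reversed. Some of the 32 were not called at first and had no call to lose. All 62 losses fall among the others, so the 763 overstates how steady the calls are. The count against controls was 5, and 3 when only the 2 groups were fitted. The count against APC cKOs was 6, and 3 when only the 2 groups were fitted. With the title number as a replicate block the counts were 4 against controls, 3 against APC cKOs and 4 against β-cat cOEs, and over all tested genes they were 14, 15 and 12 in place of 29, 30 and 32. Against APC cKOs the block and the fit of only the 2 groups each lost 3000002C10Rik, Nme6 and Sacm1l. Among the members described, the block lost Epm2aip1 against controls and Epm2aip1 and 3000002C10Rik against β-cat cOEs. Same-numbered libraries correlated at -0.218 to 0.322. In no comparison of APC/β-cat cKOs was every pair above 0.1, so the numbers were not taken to pair these samples. With each library left out, the counts ran from 4 to 5 against controls, 4 to 7 against APC cKOs, 4 to 6 against β-cat cOEs and 5 to 6 in the F test. In APC cKOs against controls they ran from 0 to 1, where Hhatl was gained without control replicate 1, and in the other 2 comparisons they stayed at 0. The cause was not tested. 2010315B03Rik was called in all 26 alternatives of each comparison of APC/β-cat cKOs. With sex as a covariate (2 libraries read as female) Poc1a was gained against controls and β-cat cOEs. Depth is unknown, so the precision of low members cannot be given.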

Other observations

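Among the 88 genes of the window below the level for testing, 25 were at 0 in all libraries. In 4 of them a genotype mean reached 0.5 FPKM: 1700102P08Rik, Acaa1b, Lyzl4 and Tgm4. Of the 196 members, 62 had their lowest and 70 their highest genotype mean in APC/β-cat cKOs. The same counts were not taken over all tested genes, so these are not a result about the members.

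Of the 183 members found by name in GENCODE, 176 were protein-coding and 3 were long intergenic RNAs. The antisense, processed transcript, small nucleolar RNA and processed pseudogene types held 1 member each, and 13 members were not found by that name.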
